A study of Mus musculus with 2 samples.

Results

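The mature tubule and collecting duct function genes examined here are 39 protein-coding genes of 21887 in the annotation. They were chosen as a named list, mostly of transporters, channels, endocytic receptors and enzymes. By these the finished nephron and collecting duct recover filtered solutes and concentrate urine. The list also holds Umod, Cldn16, Calb1 and the keratins Krt8 and Krt18, which are in none of these classes. All 39 were found in the annotation. They were followed in chromatin immunoprecipitation sequencing (ChIP-seq) of Hdac1 and of Hdac2, with 1 library per antibody. The cells of both libraries were nephron progenitor cells from kidneys of wild-type mouse embryos at E16.5, cultured and then crosslinked with formaldehyde. Going by the file labels, 0.5 µg of the Hdac1 antibody and 1 µg of the Hdac2 antibody were used, and the effects of antibody and amount cannot be told apart. The sources used here do not give the strain, the sex or the number of embryos.

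Hdac1 and Hdac2 are class I histone deacetylases, enzymes that remove acetyl groups from histones as part of larger complexes such as Sin3, NuRD and CoREST. Such complexes are found both at repressed genes and at active promoters. Nephron progenitors are the undifferentiated mesenchymal cells of the fetal kidney that turn into epithelium and then into podocytes and tubule segments. The genes described here serve the mature tubule and, as a separate part, the collecting duct. The proximal tubule takes back glucose, phosphate, amino acids and filtered protein. The thick ascending limb and distal tubule take back salt, calcium and magnesium. The collecting duct sets the final loss of water and sodium.

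An island is a region of the mouse genome (build mm10) that the authors' caller, SICER, judged enriched in reads over background. The authors give each island a single value, either p or q. A low value marks a strong island within its own list and is not comparable between the lists. The lists hold 30182 Hdac1 islands (69.0 Mb) and 20307 Hdac2 islands (65.5 Mb), and read depth is unknown. All 11 nephron progenitor markers examined, among them Six2, Cited1 and Osr1, had an Hdac1 island at a gene end, against 60.7% of all protein-coding genes, and 8 had an Hdac2 island (72.7%, against 31.7%). Islands do not measure transcription, so the labelled cell type was not checked by them. With no replicate library there is no test in what follows. Counts are read against the share of all protein-coding genes counted by the same rule. In a bulk library, a strong signal in few cells and a weak signal in many cannot be told apart.

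The 250 bases before 5 transcription starts show how different these promoters are. They were chosen because Slc4a4 and Lrp2 had the strongest Hdac1 islands at a start among the 39 genes, Umod and Slc5a1 lay farthest from any Hdac1 island among genes in the RefSeq promoter table, and Trpv5 lay farthest from any Hdac2 island. Each is written 5′ to 3′ in the direction of transcription, with every CpG dinucleotide in capitals. Positions are in GRCm38.p6, the assembly that mm10 represents. The Slc4a4 sequence is chr5:88887010-88887259 on the plus strand and belongs to a start inside the annotated gene. That of Lrp2 is chr2:69586030-69586279 on the minus strand, and that of Umod is chr7:119479263-119479512 on the minus strand. The Slc5a1 stretch is chr5:33103969-33104218 on the plus strand, and the Trpv5 stretch is chr6:41680724-41680973 on the minus strand.
Slc4a4: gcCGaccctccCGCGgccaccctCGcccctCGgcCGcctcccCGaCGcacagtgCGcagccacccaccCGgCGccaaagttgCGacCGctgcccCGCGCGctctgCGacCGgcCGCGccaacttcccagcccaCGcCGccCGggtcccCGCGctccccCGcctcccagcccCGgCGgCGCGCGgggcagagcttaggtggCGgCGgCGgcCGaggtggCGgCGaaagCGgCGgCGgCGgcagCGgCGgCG
Lrp2: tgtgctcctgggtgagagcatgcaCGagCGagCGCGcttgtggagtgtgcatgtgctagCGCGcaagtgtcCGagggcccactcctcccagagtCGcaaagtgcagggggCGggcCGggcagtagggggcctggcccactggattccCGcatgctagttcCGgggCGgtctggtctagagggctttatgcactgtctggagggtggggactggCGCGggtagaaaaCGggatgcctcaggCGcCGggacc
Umod: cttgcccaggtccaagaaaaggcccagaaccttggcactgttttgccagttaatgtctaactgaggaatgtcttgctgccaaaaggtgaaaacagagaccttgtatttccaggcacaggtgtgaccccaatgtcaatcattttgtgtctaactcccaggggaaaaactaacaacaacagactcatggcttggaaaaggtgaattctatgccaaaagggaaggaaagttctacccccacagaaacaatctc
Slc5a1: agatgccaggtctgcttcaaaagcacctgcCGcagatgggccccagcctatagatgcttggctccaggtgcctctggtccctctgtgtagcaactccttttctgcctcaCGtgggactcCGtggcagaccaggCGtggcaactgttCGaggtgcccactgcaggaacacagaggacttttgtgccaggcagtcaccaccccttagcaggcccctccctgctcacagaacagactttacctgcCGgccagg
Trpv5: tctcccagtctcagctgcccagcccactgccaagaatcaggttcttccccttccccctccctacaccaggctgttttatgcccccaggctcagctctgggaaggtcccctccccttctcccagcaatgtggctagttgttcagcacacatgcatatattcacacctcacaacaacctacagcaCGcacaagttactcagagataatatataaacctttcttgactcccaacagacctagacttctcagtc
The Slc4a4 sequence holds 44 CpG and the Lrp2 sequence 18. The sequences chosen for their distance from islands of 1 list hold 0 CpG at Umod, 6 at Slc5a1 and 1 at Trpv5. The nearest island of the other list was 22.7 kb from Umod (Hdac2), 110.7 kb from Slc5a1 (Hdac2) and 45.5 kb from Trpv5 (Hdac1).

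Most of the tubule and duct genes had no deacetylase island at either end. An island was counted at a gene end when it shared at least 1 bp with a window reaching 1 kb to each side of either outermost base of the annotated gene. By this rule 9 of the 39 genes (23.1%) had an Hdac1 island, against 60.7% of all protein-coding genes. For Hdac2 there were 4 of 39 (10.3%), against 31.7% of all genes. The genes with both were Lrp2, Papss2 and Aqp2 (3 of 39, 7.69%, against 30.7%). Hdac1 alone lay at an end of Slc34a3, Ggt1, Calb1, Aqp3, Scnn1a and Krt18, Hdac2 alone at an end of Trpm6, and neither at the other 29. Over all 21887 genes, 8383 had neither at an end.

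Islands inside genes added Cubn, Slc4a4 and Trpm6 for Hdac1, and Cubn and Slc4a4 for Hdac2. Counting the gene together with its ends, 12 of the 39 (30.8%) had an Hdac1 island, against 66.3% of all genes, and 6 (15.4%) had an Hdac2 island, against 39.4%. All 6 with Hdac2, namely Lrp2, Cubn, Slc4a4, Papss2, Trpm6 and Aqp2, also had Hdac1 (15.4% with both, against 37.4% of all genes). Neither was found at 27 of the 39 genes, against 6953 of all 21887 genes. The surroundings were not empty. An Hdac1 island lay within 100 kb of 36 of the 39 genes (92.3%, against 85.4% of all genes) and an Hdac2 island within 100 kb of 35 (89.7%, against 85.5%), and each of the 39 had at least 1 of them (32 had both, 82.1%, against 77.1%). For Hdac2 this depended on the weaker islands and on the reach: with the upper 50% of islands by value 20 genes had one (51.3%, against 64.7% of all genes), and within 50 kb 24 had one (61.5%, against 72.5%). For Hdac1 within 50 kb the shares were 79.5% of the 39 genes, against 80.6% of all genes. The genes without an Hdac1 island within 100 kb were Umod, Slc13a1 and Aqp4. Those without an Hdac2 island within 100 kb were Slc5a1, Slc6a19, Fbp1 and Trpv5.

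**Figure D1:**
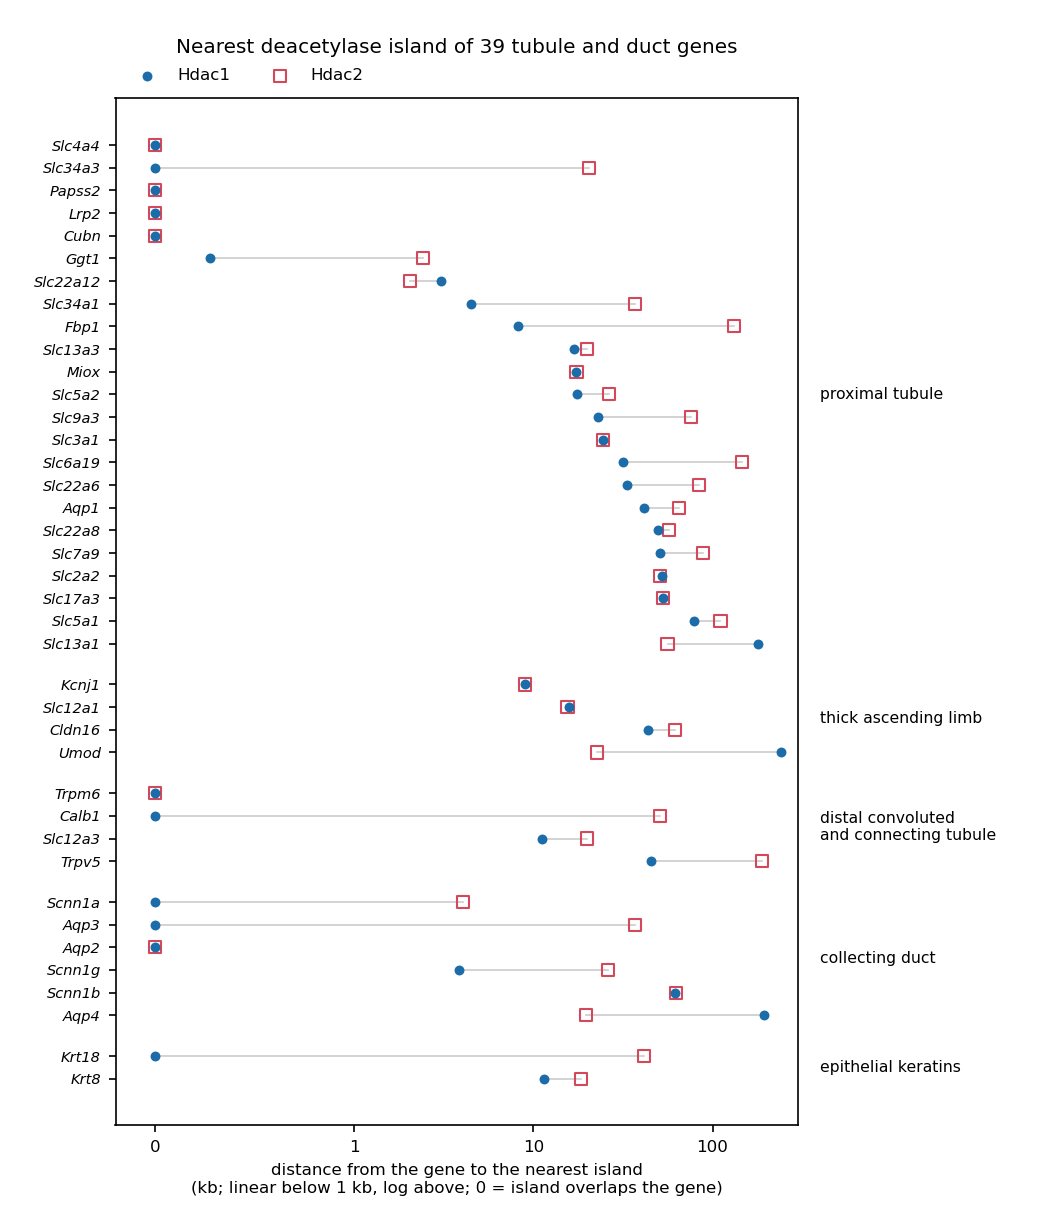
Distance in kb from each of the 39 genes to the nearest Hdac1 island (filled circles) and Hdac2 island (open squares), grouped by nephron segment. Circles at 0 mark the 11 genes that overlap an Hdac1 island, Ggt1 has one 0.3 kb away, and Umod is the farthest from Hdac1 at 240.7 kb.

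Where an Hdac1 island was present at an end, it was weaker than at most genes. Over the 13286 genes with an Hdac1 island at an end the median value of the strongest such island was 6.2e-51, and all 9 tubule and duct genes had a higher, that is weaker, value. Lrp2 was the strongest of them (3.26e-44) and stood at percentile 56.4 of those genes, where 100 is the weakest. Krt18 was the weakest (8.01e-05, percentile 99.2), and the median percentile of the 9 was 90.5. Their widths were not unusual, with a median of 2.4 kb (0.6 to 4.2 kb) against 2.4 kb for all Hdac1 genes. For Hdac2 the 4 genes were spread over the range, from Trpm6 at percentile 21.7 to Aqp2 at 69.6.

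The proximal tubule group has 23 of the 39 genes. An Hdac1 island lay at an end of 4 (17.4%, against 60.7% of all genes) and an Hdac2 island at an end of 2 (8.70%, against 31.7%). Lrp2 encodes megalin, the large receptor that takes up filtered protein at the brush border, and it carried both islands over its transcription start. The Hdac1 island, 4.2 kb wide, ran from 69584001 to 69588200 on chromosome 2, and the Hdac2 island of 3.6 kb (3.62e-10) lay wholly within it and ended at the same base. In the direction of transcription the Hdac1 island reached from 2.2 kb before the first base to 2.0 kb after it. A second Hdac1 island, of 1.0 kb and a value of 1.05e-06, lay 26.2 kb into the gene with no Hdac2 island over it.

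Cubn encodes cubilin, the receptor that works with megalin, and its islands were all inside the gene. Its start had none: the nearest Hdac1 island was 7.72 kb before the first base and the nearest Hdac2 island 7.92 kb. Hdac1 islands, at 91.9, 118.7 and 148.9 kb from the first base, had widths of 2.2, 2.2 and 0.8 kb and values of 1.97e-13, 2.4e-22 and 6.11e-09. The first and the second were overlapped by Hdac2 islands of 1.8 kb (9.59e-11) and 3.8 kb (2.72e-09). The partner receptors of 1 uptake pathway thus differed at their starts, where Lrp2 had islands of both libraries and Cubn had none. Both genes had Hdac1 islands inside the gene.

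Slc4a4 encodes the basolateral sodium bicarbonate cotransporter through which the proximal tubule returns bicarbonate to the blood, and it had the most islands. There were 6 Hdac1 and 6 Hdac2 islands inside its 445.8 kb and none within 1 kb of an end of the annotated gene. The strongest Hdac1 island (3.09e-48, 2.2 kb, 88886401 to 88888600 on chromosome 5) lay 92.5 to 94.7 kb from the first base. It covers the CpG-rich start printed above, which lies 93.4 kb into the gene, and an Hdac2 island of 1.6 kb (1.63e-08) began at the same base. The gene's second listed start, 234.1 kb in, has 3 CpG in its 250 bases and no island within 1 kb. Of its 12 islands, 4 of each list overlapped one of the other. Farther along, the overlapping pairs began near 187.3 kb (Hdac1 8.84e-17, Hdac2 1.08e-08), 352.9 kb (6.29e-14 and 1.41e-10) and 409.9 kb (1.21e-06 and 1.73e-12). The last pair held the widest Hdac1 island of the gene, 7.4 kb, beside 5.6 kb of Hdac2. Without a partner were Hdac1 islands at 134.1 kb (8.83e-19) and 246.3 kb (4.52e-10) and Hdac2 islands at 76.5 kb (7.28e-13, the lowest Hdac2 value of the gene) and 211.5 kb (6.24e-09).

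**Figure D2:**
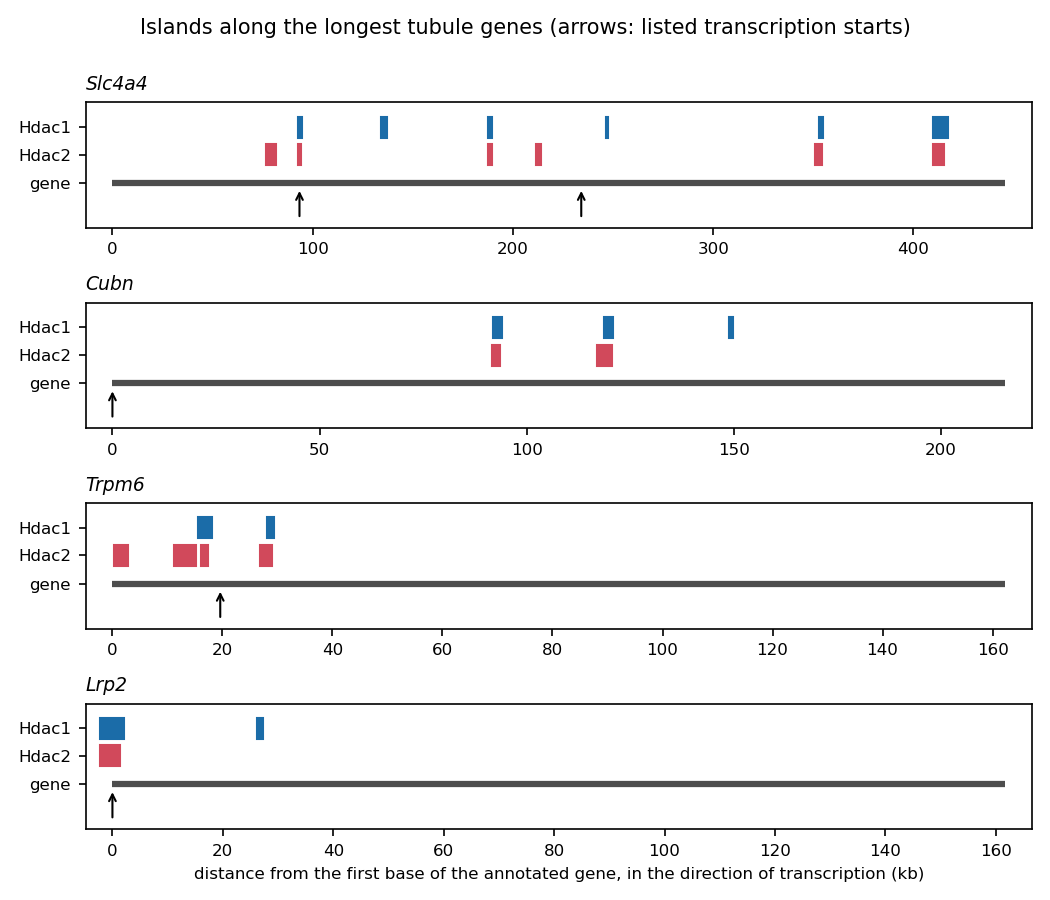
Hdac1 islands (upper bars) and Hdac2 islands (lower bars) along Slc4a4, Cubn, Trpm6 and Lrp2, the 4 longest of the 39 genes, in kb from the first base of the annotated gene in the direction of transcription, with arrows at the listed transcription starts. The start at 93.4 kb in Slc4a4 and the start of Lrp2 lie under islands of both libraries, and that of Cubn does not.

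The solute transporters of the proximal tubule other than Slc4a4 had almost none. Slc34a3, a sodium phosphate cotransporter, had an Hdac1 island of 1.4 kb (4.97e-12) at its far end, the end of the gene opposite the transcription start, 4.7 to 6.1 kb from the first base. Its partner in phosphate uptake, Slc34a1, had none in the gene, with Hdac1 4.5 kb and Hdac2 36.8 kb away. The glucose carriers were all free of islands. Slc5a2, the main luminal glucose cotransporter, lay 17.5 kb from Hdac1 and 26.5 kb from Hdac2. For Slc5a1, the high-affinity cotransporter of the late proximal tubule, the distances were 79.2 and 110.7 kb. Slc2a2, the basolateral glucose carrier, was 52.4 kb from Hdac1 and 51.0 kb from Hdac2. Both of these islands were at an end of Eif5a2.

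Organic anion, urate and amino acid transporters followed the same pattern. Slc22a6 and Slc22a8, the basolateral organic anion transporters, lie 6.2 kb apart on chromosome 19 and share the same nearest islands. The Hdac1 island there (1.2 kb, 1.39e-07) was 33.1 kb from Slc22a6 and 49.6 kb from Slc22a8, and the Hdac2 island (6.0 kb, 3.8e-08) 83.6 and 56.9 kb. Slc22a12, the urate exchanger, had islands close by, Hdac1 at 3.1 kb and Hdac2 at 2.1 kb, both at an end of its neighbour Nrxn2. Slc17a3, an apical anion and phosphate transporter, was 52.9 and 52.7 kb from islands at an end of Slc17a4. The subunits of the cystine carrier, Slc3a1 and Slc7a9, were 24.6 and 50.9 kb from Hdac1 islands that lay at ends of other genes, Camkmt and Prepl beside the first and Cep89 and Faap24 beside the second. Slc6a19, the neutral amino acid transporter, was 31.6 kb from Hdac1 and 146.0 kb from Hdac2.

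Slc9a3, the apical sodium proton exchanger, was 23.1 kb from Hdac1 and 75.9 kb from Hdac2. Slc13a3, a dicarboxylate transporter, had distances of 16.9 and 19.8 kb. The sulfate transporter Slc13a1 lay 179.5 kb from Hdac1 and 56.1 kb from Hdac2. Aqp1, the water channel of the proximal tubule and thin descending limb, was 41.3 kb from Hdac1 and 65.1 kb from Hdac2. In all, 17 of the 23 proximal genes had no island of either library in the gene or at an end, against 6953 of all 21887 genes.

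Among the enzymes, Papss2 stood apart. It makes the sulfate donor used in sulfation, and its start carried overlapping islands, Hdac1 over 1.0 kb (3e-11) and Hdac2 over 2.0 kb (7.4e-07), that began at the same base, 32595401 on chromosome 19. Ggt1, the brush border gamma-glutamyltransferase, had an Hdac1 island of 2.4 kb (2.4e-13) that ended 0.3 kb before the annotated gene. That island also lay within 1 kb of an end of Lrrc75b, and the 4 listed starts of Ggt1 were 3.33 to 12.70 kb from it. Miox, the renal myo-inositol oxygenase, was 17.4 kb from islands of both lists at ends of Lmf2 and Ncaph2. The gluconeogenic enzyme Fbp1 was 8.2 kb from Hdac1 and 132.2 kb from Hdac2.

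The thick ascending limb genes had no island in the gene or at an end in either library (0 of 4, against 66.3% of all genes for Hdac1 and 39.4% for Hdac2, in a group of 4 genes). Umod, which encodes uromodulin, the main protein of normal urine, was the farthest of all 39 genes from Hdac1, at 240.7 kb, while an Hdac2 island of 2.8 kb (2.13e-08) lay 22.7 kb away. Slc12a1, the furosemide-sensitive salt cotransporter, was 15.7 kb from Hdac1 and 15.5 kb from Hdac2, both at an end of Ctxn2. Kcnj1, the potassium channel that recycles potassium for it, was 9.0 kb from an island of each library, both 1.6 kb wide. For Cldn16, a tight junction protein needed for magnesium uptake, the distances were 43.8 and 61.6 kb.

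In the distal convoluted and connecting tubule, Calb1 and Trpm6 differed from each other. Calb1 encodes the calcium-binding protein calbindin and had an Hdac1 island of 0.6 kb (2.14e-19), the narrowest of the 9, over the end at the lower coordinate, with Hdac2 51.1 kb away. Trpm6, a magnesium channel, was the only 1 of the 39 genes with Hdac2 at an end and Hdac1 at neither end. Its Hdac2 island there (2.6 kb, 9.5e-13) lay 0.2 to 2.8 kb after the first base. The other 3 Hdac2 islands followed within 29.0 kb of the first base, with values of 0.000782, 1.78e-06 and 1.64e-07, and Hdac1 islands of 2.4 kb (2.74e-11) and 1.4 kb (9.18e-11) at 15.6 and 28.0 kb overlapped the last pair of them. The start of Trpm6 listed by RefSeq lies 19.6 kb into the annotated gene, 1.53 kb from the nearest Hdac1 island and 2.13 kb from the nearest Hdac2 island. Slc12a3, the thiazide-sensitive cotransporter, and Trpv5, the calcium channel, had none: Hdac1 was 11.2 kb from Slc12a3 and 45.5 kb from Trpv5, and Hdac2 was 19979 and 188177 bp away.

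Collecting duct genes had Hdac1 at an end in 3 of 6 cases (50%, against 60.7% of all genes) and Hdac2 in 1 (16.7%, against 31.7%), so few genes that the shares do not set the segment apart from all genes. Aqp2, the vasopressin-regulated water channel, had both, but at its far end. The Hdac1 island of 2.6 kb (1.28e-17) lay 4.5 to 7.1 kb from the first base of this 5.5 kb gene and held the whole Hdac2 island (1.4 kb, 1.78e-06), so the start was 4.54 kb from the nearest island. Aqp3, a basolateral water channel, had an Hdac1 island of 1.8 kb (9.31e-08) over its start and Hdac2 37.0 kb away. Aqp4, the other basolateral channel, was 193.4 kb from Hdac1 and 19.6 kb from Hdac2.

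The subunits of the epithelial sodium channel were not alike. Scnn1a, the alpha subunit, had an Hdac1 island of 3.0 kb (6.08e-20) at the end with the lower coordinate, which also lay within 1 kb of an end of Ltbr, and a second of 1.6 kb (2.8e-07) inside. Scnn1b and Scnn1g, the beta and gamma subunits, are 96.6 kb apart on chromosome 7 and had none, with Hdac1 62.1 and 3.8 kb away and Hdac2 62.7 and 26.0 kb away. Krt8 and Krt18, the keratin pair of simple epithelia that assemble with each other, also differed. An Hdac1 island of 2.6 kb with a high value (8.01e-05) lay over the start of Krt18, and Krt8, 23.9 kb from it, was 11.5 kb from Hdac1. Hdac2 was 18.5 kb from Krt8 and 41.6 kb from Krt18. With 2 to 6 genes in each distal group, the counts by segment are a description and were not compared by a test.

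Islands around the genes often lay at other genes. Within 100 kb, and outside the 39 genes and their ends, there were 154 Hdac1 islands, of which 91 (59.1%) were at an end of another protein-coding gene, compared with 40.3% of all Hdac1 islands. For Hdac2 the count was 45 of 77 (58.4%), compared with 29.6% of all Hdac2 islands. All islands include those far from any gene, whereas the flanking ones were picked for lying near a gene. Islands flanking all genes were not counted, so these shares do not set the 39 genes apart. Of the 27 genes with no Hdac1 island in the gene or at an end, the nearest one was at an end of another gene in 14 cases (51.9%). Of the 33 without Hdac2 it was so in 21 cases (63.6%). The same count was not made over all genes without an island, so it is a description only. The median distance to the nearest Hdac1 island was 15.7 kb over the 39 genes and 0 kb over all genes. For Hdac2 it was 26.0 kb over the 39 genes and 11.5 kb over all genes. The number of islands within 100 kb differed less, with medians of 4 Hdac1 and 2 Hdac2 islands at the 39 genes and 5 and 2 at all genes.

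The longest genes had islands inside. The 5 genes with an island inside and away from both ends were Slc4a4, Cubn, Trpm6, Lrp2 and Scnn1a. They include the 4 longest of the 39, from 161.7 to 445.8 kb. The median length was 25.1 kb over the 39 and 17.2 kb over all genes. Scnn1a is only 30.7 kb long, and longer genes such as Slc9a3 (83.2 kb) and Slc12a1 (77.5 kb) had no island inside. Of the 22 Hdac1 islands in or at the 39 genes, 11 overlapped an Hdac2 island (50%, compared with 39.8% of all Hdac1 islands). Of the 15 Hdac2 islands, 11 overlapped Hdac1 (73.3%, compared with 59.4%). All islands include those far from any gene. Among the islands flanking the 39 genes within 100 kb, 65 of 154 Hdac1 islands (42.2%) overlapped Hdac2. For Hdac2 it was 67 of 77 (87%), a higher share than in or at the genes. These shares were not tested.

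The RefSeq promoter table, which gives strand and sequence, was matched by symbol and gene ID to 34 of the 39 genes, and Slc5a2, Slc13a1, Calb1, Aqp4 and Scnn1a were not matched. Counted within 1 kb of any transcription start listed there, 5 of the 34 (14.7%) had Hdac1, against 61.4% of the 17492 genes with a listed start, and 3 (8.82%) had Hdac2, against 31.7%. The 5 were Lrp2, Slc4a4, Papss2, Aqp3 and Krt18, and the first 3 of these had both. Slc34a3, Ggt1 and Aqp2 were not among them, since their islands were at the far end or outside this window.

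Promoters of these genes had few CpG. The ratio of observed to expected CpG in the 250 bases before a start, which is near 1 where CpG is not depleted, had a median of 0.31 over the 40 starts of the 34 genes and 0.53 over the 21263 starts of all genes. When all starts were divided by this ratio into a low, a middle and a high group of equal size (bounds 0.30 and 0.72), 19 starts of the 39 genes fell in the low group, 19 in the middle and 2 in the high one. The 5 starts with an Hdac1 island had ratios of 0.53 to 1.07, and the 35 without had 0.00 to 0.69. Starts of Slc9a3 (0.69) and Scnn1g (0.63) had ratios as high as some with islands and were 58.21 and 3.88 kb from Hdac1.

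The share of starts with Hdac1 was then set beside that of all starts in the same group. In the low group 0 of 19 had Hdac1, against 13.8% of all starts there. In the middle group 3 of 19 had it, against 70.6%, and in the high group 2 of 2, against 97.7%. Without grouping, 5 of 40 starts had Hdac1, against 60.7%, and 3 of 40 had Hdac2, against 31.5%. The starts of the 39 genes lay low within the middle group (median ratio 0.41, against 0.53 for all starts there). A finer division was therefore made after the values were seen. In the lower part of that group (ratios 0.30 to 0.53) 1 of 15 had Hdac1, against 53.2% of all starts, and in the upper part (0.53 to 0.72) 2 of 4, against 88.1%. For Hdac2 the counts were 0 of 19 in the low group, 1 of 19 in the middle and 2 of 2 in the high one, against 6.12%, 30.2% and 58.2% of all starts. Starts of 1 gene share their surroundings, and 3 of the 15 belong to Ggt1, so these shares were not tested.

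**Figure D3:**
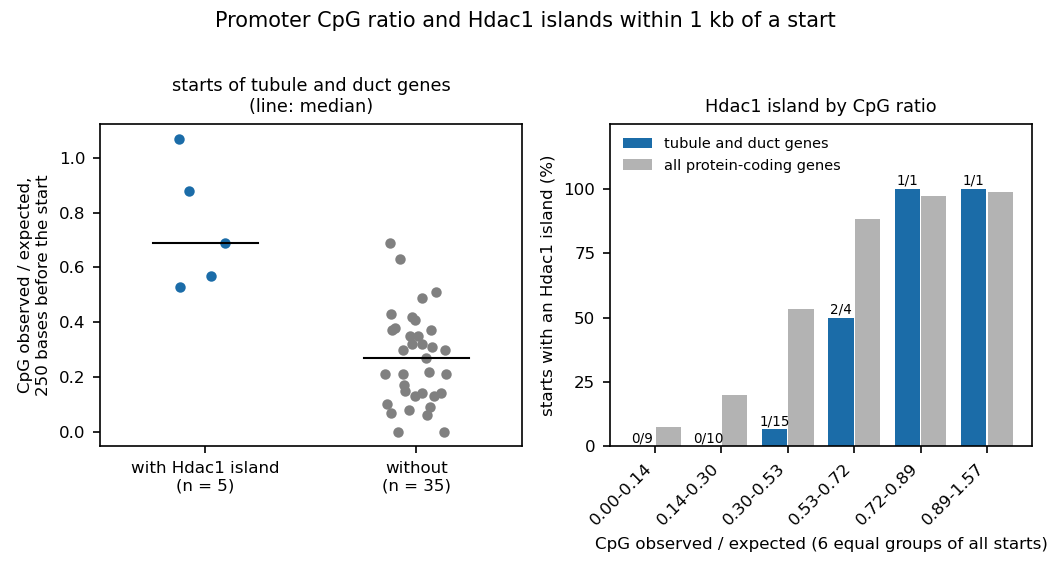
Left, the CpG ratio of the 40 listed starts of tubule and duct genes with and without an Hdac1 island within 1 kb (points are starts, lines medians of 0.69 and 0.27). Right, the percentage of starts with an Hdac1 island in 6 equal groups of all starts by this ratio, tubule and duct genes beside all protein-coding genes, with counts over the bars of the tubule and duct genes, which are lower than those of all genes in each of the 4 lower groups.

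Short motifs of kidney and liver regulators were searched on both strands of the same 250 bases. GTTAAT, a half-site of Hnf1 factors, was found at 5 of the 40 starts (12.5%, against 5.86% of all starts), those of Umod, Miox, Slc34a1, Slc22a6 and Slc22a8. These genes are among the 27 of 39 with no island in the gene or at an end, and Slc22a6 and Slc22a8 are neighbours. CAAAGTC, part of the Hnf4 motif, was found at 2 starts (5%, against 3.65%), and TATAAA, the TATA box, at 6 (15%, against 11.6%). A match describes letters in a window and is not a bound site.

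A further list of nephron function genes had a higher share with Hdac1 at an end than the 39 genes and a like share with Hdac2. In this list of 55 further transporters, channels, regulators and enzymes of the same segments, 22 (40.0%, against 60.7% of all genes) had Hdac1 at an end and 7 (12.7%, against 31.7%) had Hdac2. Within 100 kb, 81.8% of them had Hdac2, against 85.5% of all genes. The 7, all with both, were Amn, the membrane anchor of cubilin, Car2, Hsd11b2, Nr3c2, Ptger3, Slc26a4 and Stk39. By segment, Hdac1 lay at an end of 12 of 25 proximal, 1 of 8 thick ascending limb, 3 of 9 distal and 6 of 13 collecting duct genes of that list. For Hdac1 at an end the thick ascending limb was thus the lowest group in both lists, with 0 of 4 and 1 of 8, both few genes. For Hdac2 at an end it was not the lowest in the further list, with 1 of 8 (12.5%) beside 1 of 25 proximal genes (4%). The list holds several genes that are also expressed widely outside the kidney, such as Nedd4l and Clcn5. Of these, Clcn5 had Hdac1 at an end and Nedd4l did not. Whether wide expression goes with islands was not tested.

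Podocyte genes, which serve the filter rather than the tubule, had a share with Hdac1 at an end close to that of all genes and a higher share with Hdac2. Of 18, 11 (61.1%, against 60.7% of all genes) had Hdac1 and 8 (44.4%, against 31.7%) had Hdac2, which were Podxl, Kirrel, Npnt, Plce1, Actn4, Cd2ap, Lamb2 and Vegfa. Of 18 genes for transcription factors of nephron epithelium, 8 (44.4%, against 60.7%) had Hdac1 and 2 (11.1%, against 30.7%), Lhx1 and Sim1, had both. No test of the difference between the lists was made, since genes of 1 library are not replicates.

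**Figure D4:**
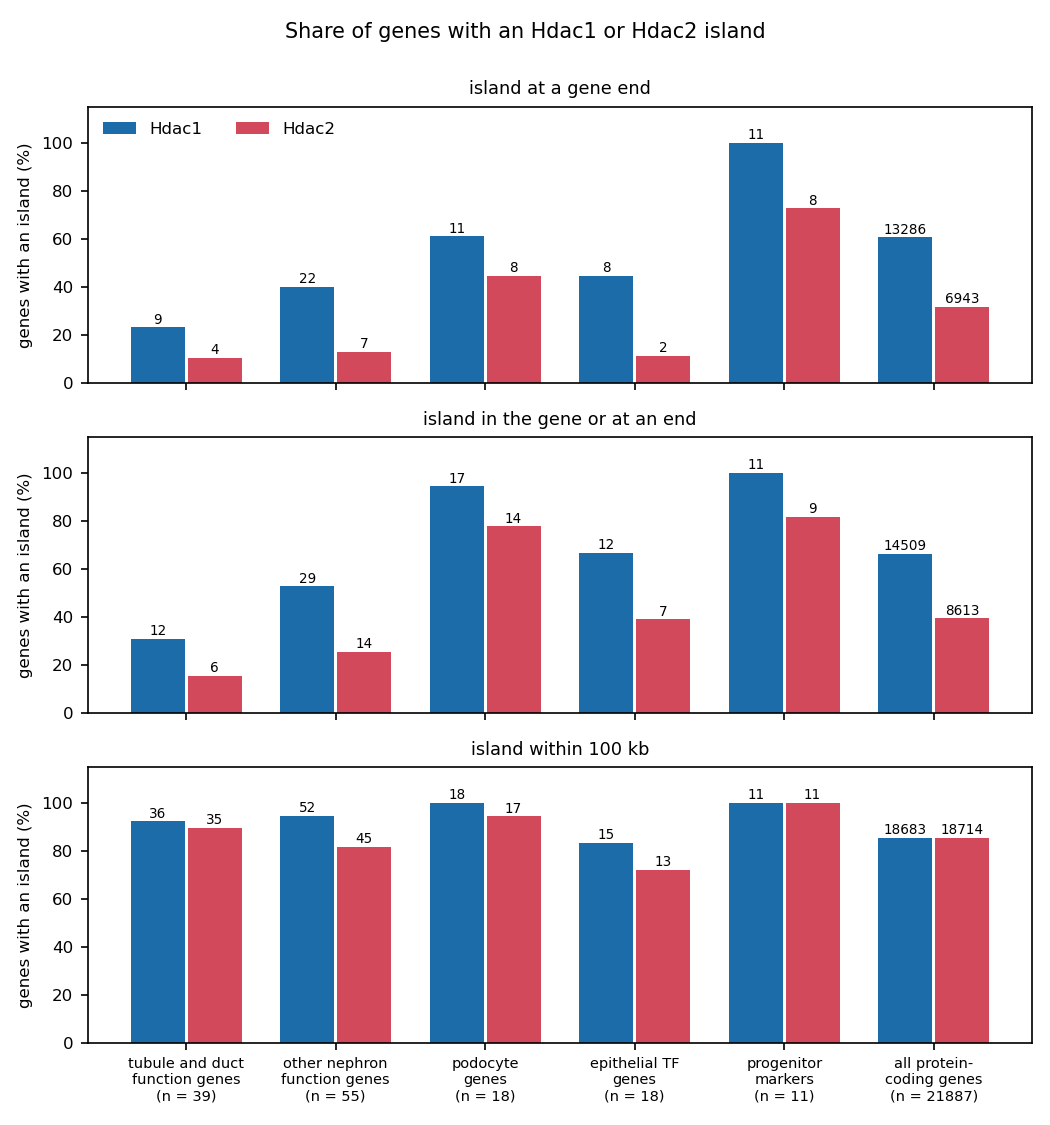
Percentage of genes with an Hdac1 island (blue, left bars) or Hdac2 island (red, right bars) at a gene end, in the gene or at an end, and within 100 kb, for the tubule and duct genes, 4 comparison lists and all protein-coding genes, with gene counts over the bars. At gene ends the tubule and duct genes have the lowest share for Hdac1 (23.1%). For Hdac2 their share (10.3%) is close to those of epithelial transcription factor genes (11.1%) and other nephron function genes (12.7%). Within 100 kb the tubule and duct genes are at 92.3% and 89.7%, against 85.4% and 85.5% of all protein-coding genes.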

How the data were processed

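ChIP-seq islands of 1 Hdac1 and 1 Hdac2 library of E16.5 nephron progenitor cells were used. Per the labels' protocols, each library came from 500 pg of DNA and was amplified for 12 cycles plus 1 to 3 more, so reads need not be independent molecules. The parallel IgG and H3K4me3 precipitations were not analysed here. The submitters' processing notes name build mm10, the aligner BWA 0.7.5a, SAMtools 1.3.1, FastQC, bedtools 2.17 and the island caller SICER. This caller joins enriched windows, so island edges are coarse. The sources used here do not give its settings, the background library or any pooling. The deposited files hold for each island a position and 1 p-value or q-value by the authors (which of these is not stated), all below 0.1. Positions, counted from 0 in the files, are given 1-based.

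Genes were the protein-coding genes of the RefSeq annotation of GRCm38.p6 on chromosomes 1 to 19, X and Y. Promoter sequences and strand came from the RefSeq promoter table of the same build. Overlap meant at least 1 bp. Ends were 1 kb on either side of the first and last base, and the reach was 100 kb. The distance to an island runs from the nearest base of the gene, or from the start where a start is named. The list members, segments and comparison lists were chosen with earlier results of these data known. Members with an island in the gene or at an end are described with the values of these islands, and the others by distance. Alternatives were the upper 50% of islands by value, windows of 0.5 and 5 kb, 200 bp of overlap, the transcription start end only, islands merged within 1 kb, and reaches of 50 and 200 kb. Counting at any listed start was added after the values were seen. On simulated islands, the 200 genes planted with an island were all found among 21887 for each library, and counts equalled those of bedtools 2.31.1. Python 3.11.15, numpy 2.4.6, pandas 2.3.3 and matplotlib 3.10.9 were used.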

Additional observations from a re-analysis of the deposited data

How the results depend on the processing

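The tubule and duct genes had a smaller share with an island at an end, or in the gene or at an end, than all genes under every alternative run. With the upper 50% of islands by value, Hdac1 at an end fell to 4 genes (10.3%, against 52.6% of all genes) and Hdac2 to 2 (5.13%, against 15.8%). Both fell to 1, Lrp2 (2.56%, against 15%). Under the same alternative, genes with Hdac1 in the gene or at an end numbered 6 (15.4%, against 57.2% of all genes). Genes with Hdac2 within 100 kb numbered 20 (51.3% against 64.7% of all genes), the other direction from all islands, as also with a reach of 50 kb (61.5%, against 72.5%). For Hdac1 a reach of 50 kb gave 79.5%, against 80.6%. A window of 5 kb raised Hdac2 at an end to 7 genes (17.9%, against 38.4% of all genes). Both rose to 6 (15.4%, against 36.5%). The added genes were Ggt1, Scnn1a and Slc22a12. The transcription start end alone gave 5 genes with Hdac1 of 34 tested (14.7%, against 58.9% of all genes tested). Any listed start also gave 5 (14.7%, against 61.4%). Fewer genes and ends were tested here by construction. The other 32 of 41 alternative counts were within 1.5 times of the reported ones. With 1 library per antibody, no library could be left out, and depth is unknown. No paired analysis was possible because each antibody has 1 library.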
